A study of Mus musculus with 16 samples.

Results

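The 35 genes described here mark naive T cells or hold resting T cells out of the cell cycle: receptors for homing and survival, the FOXO, FOXP and KLF transcription factors behind them, factors of T cell identity, antiproliferative proteins, and genes that restrain metabolism or growth signals. They were taken by name from a list chosen with earlier results of these data known, so contrasts with all genes are a description. Each was read from the probe that carries that single gene symbol. All 35 had exactly 1 such probe and passed the filter on low values, out of 16427 genes tested. The arrays measured total RNA from naive CD4+ T cells of B6 mice, sorted from spleen and lymph nodes without CD25-positive cells and then stimulated for 24 h. Both genotypes got both stimuli, which were latex beads with anti-CD3, a signal through the T cell receptor, and beads with anti-CD3 and anti-CD28, which add costimulation. The 4 groups, of 4 arrays each, were wild type with anti-CD3 (WT_CD3), wild type with both antibodies (WT_CD3CD28), and the DEC1 knockout with the same stimuli (KO_CD3 and KO_CD3CD28). The gene knocked out, Bhlhe40, encodes the transcription factor DEC1. No group was left unstimulated, so every level below is one of activated cells, and how the knockout was made, the age of the mice and whether the arrays of a group came from separate animals are not stated in the labels. The p-values therefore measure the spread between these arrays, part of which may be technical.

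A naive T cell circulates between blood and lymph nodes in a small, quiescent state. FOXO1, a transcription factor that the kinase AKT drives out of the nucleus after antigen receptor and CD28 signals, maintains Il7r, Klf2 and Ccr7 in resting cells, and KLF2 in turn maintains S1pr1, the receptor through which lymphocytes leave lymph nodes. Quiescence is further kept by the BTG and TOB proteins, which recruit enzymes that shorten mRNA tails, by Schlafen proteins, and by inhibitors of the growth kinase mTORC1 such as TSC1 and the sestrins. On activation these genes are generally turned down while the cell grows and divides.

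Values are log2 array signals, so a difference of 1 is a 2-fold change, and levels of different probes are not compared. No member was near the background of the arrays in any group: the lowest median rank was that of Rasgrp2 in WT_CD3CD28, above 56% of all probes of an array. The targeted gene went with the labels. With anti-CD3, Bhlhe40 read 7.56 ± 0.42 (SD, n = 4) in wild type and 5.53 ± 0.32 in the knockout, where it is near background. With both antibodies it read 9.51 ± 0.71 and 5.88 ± 0.14, and under neither stimulus did the genotypes overlap. Xist, the RNA of the silenced X chromosome, read 10.44 to 11.36 on the arrays of WT replicate 1 and of KO replicates 2 and 4 under both stimuli and 5.09 to 5.80 on all others, so the genotypes differ in how many arrays carry it. Same-numbered arrays of the 2 genotypes thus differ in Xist for replicates 1, 2 and 4, and the labels match them by number alone. Adding Xist to the fit changed no member's call, but no member was called between genotypes without it, so none could be lost there. Among all genes, those called between genotypes under anti-CD3 went from 169 to 49 when Xist was added.

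Costimulation lowered most of these genes, in both genotypes. In wild type, 28 of the 35 members were lower with anti-CD28 than with anti-CD3 alone and 0 were higher (limma, Benjamini-Hochberg adjusted p under 0.05 over all genes, which is what called, fell and rose mean below), where 13% of all genes were called lower and 16% higher. The median member difference was -0.79, against -0.03 over all genes tested. In the knockout 28 members fell and 1, Igfbp4, rose, where 17.6% of all genes were called lower and 20.4% higher, with a median of -0.81 against -0.06. Falls of at least 2-fold were called for 13 members in wild type and 14 in the knockout, where 1.63% and 1.74% of all genes did so. All 4 arrays with anti-CD28 lay below all 4 without it for 28 members in wild type (14.3% of all genes) and 27 in the knockout (16.2%). In bulk RNA, fewer cells with a transcript and less of it per cell cannot be told apart.

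**Figure D1:**
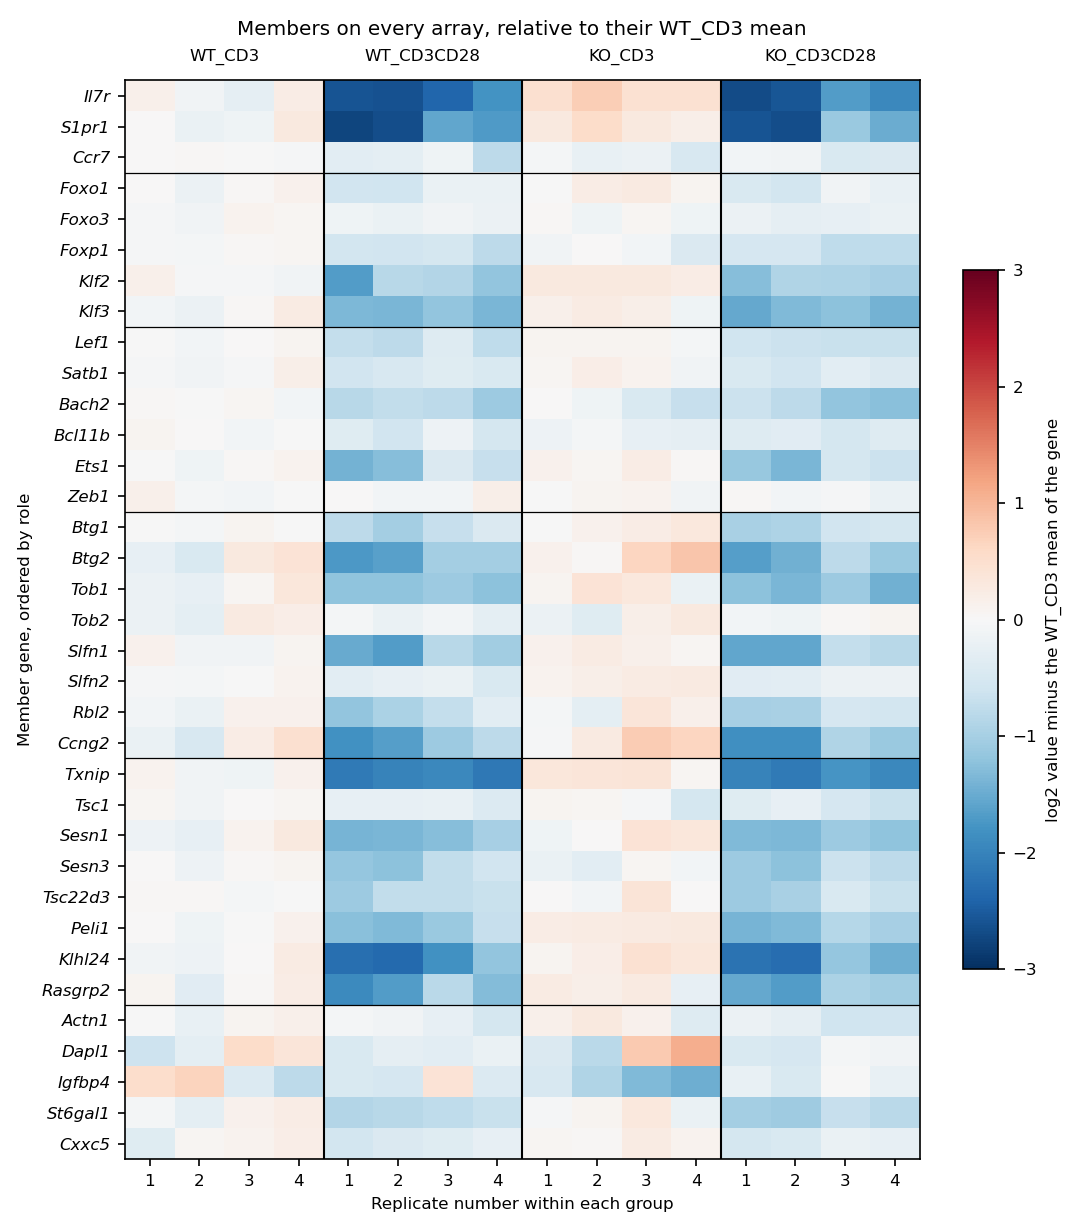
Colour gives the log2 value of each member gene (rows, by role) on each of the 16 arrays (columns, by group and replicate number) minus the gene's mean in WT_CD3; blue is lower and red higher. The 2 anti-CD28 groups are blue for most rows, deepest for Il7r, S1pr1, Txnip and Klhl24, while Zeb1, Tob2, Foxo3, Dapl1 and Igfbp4 break the pattern.

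The count of falls stayed between 26 and 30 under other scalings of the arrays, while some single calls were lost or gained. When every array was centred at its own median, the median difference of all genes went from -0.03 to 0.06 in wild type and from -0.06 to 0.07 in the knockout, and the share of higher genes among all calls from 55.1% to 69.3% and from 53.8% to 75%. Relative to the median of all genes, the members' median was -0.765 in wild type and -0.747 in the knockout, before and after centring. After it, 26 members were still called lower in each genotype, where 1438 genes in all were in wild type and 1430 in the knockout. Ccr7 (adjusted p = 0.165) and Slfn2 (0.061) lost their calls in wild type after centring, and Tsc1 (0.266) and Actn1 (0.159) lost theirs in the knockout. After quantile normalization Cxxc5 lost its call in wild type (0.05003), and Foxo3 (0.00281) and Zeb1 (0.0127) were called lower in the knockout. That left 27 and 30 members called lower, where 1995 and 2423 genes in all were. In the role groups below, array values are given in the order of replicates 1 to 4.

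Promoter sequence gives some context for the groups. RefSeq promoter windows on GRCm38.p6, from 250 bases before a transcript start to 50 after it, were matched by symbol for 29 of the 35 members, and 3 motifs were searched on both strands, none of which contains another: GTAAACA (FOXO and other forkhead factors), GGGCGGG (KLF and SP factors) and CACGTG, the E-box that DEC proteins bind. The forkhead letters stood in a window of 4 of the 29 members (13.8%), which were Txnip, Btg1, Sesn1 and Dapl1, against 3.26% of the 12917 tested genes with windows and 4.05% of all 27025 genes in the table. The KLF and SP letters stood in 20 of 29 (69%), against 45.5% of tested genes and 27.9% of all genes. The E-box stood in 1 of 29 (3.45%), in 1 of the 4 windows of Lef1, against 10.5% of tested genes and 8.09% of all genes. A gene with several windows counts if any of them holds the letters. Counted by window, the forkhead letters stood in 9.09% of the members' windows and 2.74% of those of tested genes. The KLF and SP letters stood in 54.5% and 40.7%, and the E-box in 2.27% and 8.98%. No window was matched for S1pr1, Ccr7, Ets1, Zeb1, Klhl24 and Cxxc5. Such matches are letters in a window and not measured binding. The sequences run 5' to 3' on the + strand, in lower case with the motifs in capitals, and TGTTTAC and CCCGCCC are the forkhead and KLF motifs read from the other strand.

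The receptors for survival and traffic held the deepest falls. Il7r encodes the alpha chain of the receptor for IL-7, the cytokine that keeps naive T cells alive. In wild type, Il7r read 11.86, 11.60, 11.45 and 11.95 with anti-CD3 and 9.12, 9.10, 9.35 and 9.92 with anti-CD28 added. Every costimulated array was far below every anti-CD3 array, and the level fell by 2.34 ± 0.21 (log2 difference ± SE, 5.08-fold, adjusted p = 3.75e-07). In the knockout, Il7r read 12.21, 12.44, 12.17 and 12.17 and then 9.03, 9.16, 10.03 and 9.78, again far apart (6.72-fold lower, adjusted p = 2.92e-08). S1pr1, the exit receptor for sphingosine 1-phosphate, read 11.32, 11.10, 11.17 and 11.59 in WT_CD3 and 8.54, 8.63, 9.75 and 9.59 in WT_CD3CD28. For S1pr1 in the knockout the values were 11.58, 11.84, 11.58 and 11.46, then 8.70, 8.64, 10.18 and 9.81. The groups were well apart in both genotypes (4.49-fold and 4.86-fold lower, adjusted p = 5.72e-05 and 2.11e-05), but replicates 3 and 4 kept a higher S1pr1 level under costimulation than replicates 1 and 2.

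Ccr7, the chemokine receptor for entry into lymph nodes, changed little. Its WT_CD3 values of 11.65, 11.67, 11.62 and 11.60 were the most tightly grouped of all members there, and with anti-CD28 they were 11.32, 11.35, 11.50 and 10.86. The costimulated arrays were all lower, by a modest 1.3-fold (adjusted p = 0.0342). That Ccr7 call was lost without any 1 of the 4 WT_CD3 arrays or without WT_CD3CD28 replicate 1 or 4, with adjusted p from 0.0528 to 0.111 and differences from -0.40 to -0.25. In the knockout, Ccr7 read 11.57, 11.42, 11.47 and 11.17 with anti-CD3 and 11.55, 11.53, 11.18 and 11.20 with both. These groups overlapped throughout (difference -0.04, 95% interval -0.31 to 0.23). The difference between the genotypes' Ccr7 responses was 0.34 (interval -0.05 to 0.72, adjusted p = 0.905), so no difference between them was called.

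Among the forkhead and KLF factors, 4 of 5 fell in each genotype, the KLFs by more than 2-fold and the forkheads by less. Klf2, the factor upstream of S1pr1, read 8.81, 8.62, 8.63 and 8.54 in WT_CD3 and 6.97, 7.83, 7.77 and 7.46 in WT_CD3CD28. In the knockout Klf2 read 8.94, 8.95, 8.93 and 8.88 and then 7.37, 7.74, 7.73 and 7.66, so the costimulated arrays were lower in both genotypes without overlap (2.21-fold and 2.47-fold, adjusted p = 1.47e-05 and 2.03e-06). Klf3, a KLF family repressor, had wild-type values of 10.19, 10.10, 10.31 and 10.52 and then 8.92, 8.90, 9.10 and 8.91. Its knockout values of 10.43, 10.53, 10.45 and 10.15 were likewise all above 8.74, 8.96, 9.05 and 8.85. The Klf3 gap was wide beside the spread within groups (2.5-fold and 2.8-fold, adjusted p = 1.24e-07 and 1.47e-08). Its promoter is shown because it is the densest in KLF and SP letters among the windows printed here (chr5:64803271-64803520).
Klf3: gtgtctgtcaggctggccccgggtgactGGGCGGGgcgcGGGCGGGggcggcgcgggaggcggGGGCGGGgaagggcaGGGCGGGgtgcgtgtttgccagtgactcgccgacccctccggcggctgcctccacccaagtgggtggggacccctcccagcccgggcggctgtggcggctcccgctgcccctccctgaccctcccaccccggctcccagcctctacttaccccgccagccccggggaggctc

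Foxp1, a forkhead factor needed for T cell quiescence, fell by less. In wild type it went from 10.50, 10.48, 10.56 and 10.58 to 9.98, 9.96, 9.99 and 9.75, and in the knockout from 10.42, 10.55, 10.44 and 10.09 to 10.02, 10.02, 9.77 and 9.76. The Foxp1 groups were close but separate in each genotype (1.53-fold and 1.39-fold lower, adjusted p = 0.000175 and 0.00108). Foxo1 fell in both genotypes (-0.40 ± 0.12 and -0.47 ± 0.12, adjusted p = 0.0195 and 0.00519). In wild type the Foxo1 call did not survive leaving out WT_CD3 replicate 4 (adjusted p = 0.0676) or WT_CD3CD28 replicate 1 (0.0723) or 2 (0.0766). Foxo3, the second FOXO factor of T cells, differed by -0.15 (interval -0.31 to 0.01) in wild type and -0.18 (-0.34 to -0.02, adjusted p = 0.0651) in the knockout. The Foxo3 difference in the knockout was called with the replicate block, a fit with a term for the replicate number (adjusted p = 0.0422, where 22% of all genes were called lower), and without KO_CD3 replicate 4 (0.0419). It was also called after quantile normalization (-0.27, adjusted p = 0.00281) and with array weights (0.0259), which called Foxo3 in wild type too (-0.18, adjusted p = 0.0359).

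The transcription factors of T cell identity gave smaller and more uneven falls, with 5 of 6 called in wild type and 4 of 6 in the knockout. Lef1, partner of TCF-1 in naive cells, read 11.22, 11.15, 11.24 and 11.32 in WT_CD3 and 10.51, 10.46, 10.85 and 10.48 in WT_CD3CD28. Knockout Lef1 values were 11.31, 11.33, 11.32 and 11.16, then 10.63, 10.59, 10.56 and 10.57. Both pairs of groups were well separated (1.58-fold and 1.62-fold lower, adjusted p = 2.05e-05 and 6.74e-06). Bach2, a repressor of effector genes, read 9.65, 9.60, 9.67 and 9.53 and then 8.77, 8.88, 8.83 and 8.52 in wild type. In the knockout, Bach2 read 9.62, 9.48, 9.16 and 8.93 with anti-CD3 and 8.96, 8.84, 8.43 and 8.37 with both. The wild-type groups stood apart (1.82-fold, adjusted p = 0.000273), while in the knockout KO_CD3 replicate 4 fell within the range of the costimulated arrays (1.57-fold, adjusted p = 0.00224).

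Satb1, a chromatin organizer, moved within a narrow band. It went from 11.83, 11.74, 11.82 and 12.03 to 11.29, 11.37, 11.50 and 11.39 in wild type, and from 11.92, 12.05, 11.97 and 11.75 to 11.41, 11.29, 11.55 and 11.43 in the knockout. All costimulated Satb1 arrays were the lower ones (1.39-fold and 1.42-fold, adjusted p = 0.000588 and 0.000234). Ets1, which supports naive T cell survival, fell 1.94-fold and 2.04-fold (adjusted p = 0.00124 and 0.00049). Bcl11b, a factor of T lineage commitment, fell by 0.41 ± 0.09 in wild type (adjusted p = 0.00228). In the knockout it differed by -0.23 (interval -0.42 to -0.04, adjusted p = 0.057), with no overlap of the groups, and passed the threshold without WT_CD3CD28 replicate 3 (0.0318). The knockout difference of Bcl11b stayed at -0.23 without that array, which enters it only through the spread that the fit shares over all arrays. Zeb1, an E-box repressor, read 9.95, 9.74, 9.71 and 9.78 in WT_CD3, 9.81, 9.72, 9.70 and 9.96 in WT_CD3CD28, 9.78, 9.87, 9.91 and 9.69 in KO_CD3 and 9.82, 9.71, 9.75 and 9.58 in KO_CD3CD28. All 4 Zeb1 groups overlapped, and its differences with anti-CD28 were 0.00 (interval -0.18 to 0.19) and -0.10 (-0.28 to 0.08). After quantile normalization the knockout difference of Zeb1 was -0.29 and was called (adjusted p = 0.0127), so its value there turns on the scaling.

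**Figure D2:**
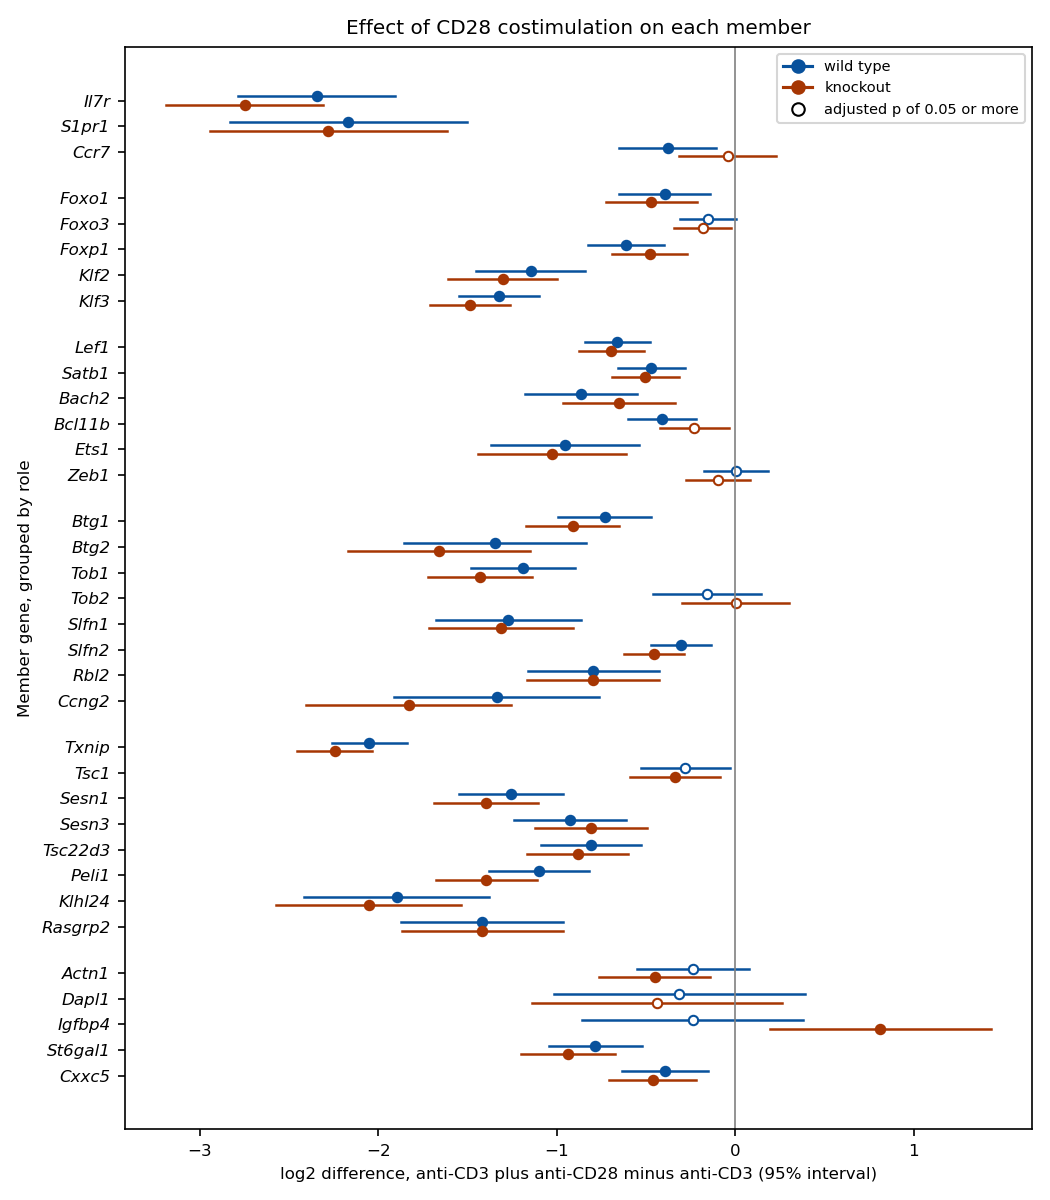
Points give the log2 difference between anti-CD3 plus anti-CD28 and anti-CD3 alone for each member, with 95% intervals from the fit, in wild type (blue) and knockout (brown); open points did not pass an adjusted p of 0.05. Nearly all points lie left of 0, the farthest being Il7r at -2.34 and -2.75, and the knockout Igfbp4 point at 0.81 stands alone on the right.

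Of the antiproliferative and cell cycle genes, 7 of 8 fell in both genotypes. Tob1, an antiproliferative partner of the mRNA deadenylation machinery, read 9.45, 9.38, 9.68 and 9.96 in WT_CD3 and 8.41, 8.40, 8.52 and 8.38 in WT_CD3CD28. In the knockout, Tob1 read 9.69, 10.03, 9.93 and 9.41 and then 8.39, 8.26, 8.53 and 8.17. The costimulated values sat in a narrow band below all others (2.28-fold and 2.69-fold lower, adjusted p = 5.75e-06 and 4.14e-07). Its relative Tob2 read 8.56 ± 0.28 and 8.40 ± 0.11 in wild type and 8.53 ± 0.30 and 8.53 ± 0.09 in the knockout, with overlapping groups and differences of -0.16 (interval -0.46 to 0.14) and 0.00 (-0.30 to 0.30). Whether Tob1 and Tob2 differ from each other was not tested. Slfn1, the founding Schlafen gene, read 11.87, 11.64, 11.65 and 11.83 and then 10.23, 10.08, 10.90 and 10.69 in wild type. In KO_CD3 Slfn1 read 11.88, 12.00, 11.90 and 11.79, and in KO_CD3CD28 10.18, 10.20, 11.03 and 10.91. Slfn1 groups did not meet in either genotype (2.41-fold and 2.49-fold, adjusted p = 7.9e-05 and 3.66e-05), and again replicates 3 and 4 were the higher ones under costimulation.

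Btg1, whose loss with Btg2 is known to take T cells out of quiescence, read 11.25, 11.19, 11.33 and 11.25 in WT_CD3 and 10.46, 10.24, 10.56 and 10.82 in WT_CD3CD28. Knockout Btg1 values went from 11.24, 11.38, 11.47 and 11.58 to 10.29, 10.32, 10.69 and 10.73. The groups were apart in each genotype (1.66-fold and 1.88-fold lower, adjusted p = 0.000231 and 1.82e-05). Btg2 fell further, 2.54-fold and 3.16-fold (adjusted p = 0.000389 and 3.65e-05), as did Ccng2, the growth-arrest cyclin G2, by 2.52-fold and 3.55-fold (adjusted p = 0.00115 and 4.6e-05). Rbl2, the pocket protein p130 that represses cell cycle genes in resting cells, fell 1.73-fold and 1.74-fold (adjusted p = 0.00208 and 0.00158). Slfn2, without which T cells lose quiescence, read 10.96, 10.93, 10.99 and 11.11 in WT_CD3, 10.67, 10.76, 10.80 and 10.54 in WT_CD3CD28, 11.11, 11.17, 11.26 and 11.28 in KO_CD3 and 10.67, 10.69, 10.83 and 10.81 in KO_CD3CD28. Its costimulated arrays were lower in both genotypes by small amounts (1.24-fold and 1.37-fold, adjusted p = 0.00717 and 0.000222). Probes of near-identical Schlafen genes may share sequence, so their separate values are uncertain. The Btg1 promoter is shown for its forkhead letters at position -204 from the start (chr10:96616751-96617000).
Btg1: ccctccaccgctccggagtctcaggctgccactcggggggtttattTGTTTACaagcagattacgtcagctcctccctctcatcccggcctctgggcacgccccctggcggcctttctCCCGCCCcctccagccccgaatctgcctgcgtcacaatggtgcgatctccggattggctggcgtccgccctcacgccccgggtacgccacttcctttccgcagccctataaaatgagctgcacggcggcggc

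The metabolic regulators and signalling genes fell together: 7 of 8 in wild type, where the eighth was Tsc1, and 8 of 8 in the knockout. Most of them restrain growth or activation, but Rasgrp2 activates the GTPase RAP1 and is no brake. Txnip, which limits glucose uptake and binds thioredoxin, read 11.97, 11.74, 11.71 and 11.99 in WT_CD3 and 9.73, 9.86, 9.91 and 9.72 in WT_CD3CD28. Knockout Txnip read 12.18, 12.22, 12.23 and 11.91 and then 9.85, 9.73, 10.08 and 9.92. The gap was wide and even over all replicates, and Txnip had the smallest p of all members (4.14-fold and 4.74-fold lower, adjusted p = 5.97e-10 and 1.02e-10). Sesn1, a sestrin that inhibits mTORC1, read 10.69, 10.60, 10.97 and 11.15 and then 9.47, 9.48, 9.58 and 9.85 in wild type. Its knockout values were 10.71, 10.87, 11.25 and 11.19, then 9.53, 9.51, 9.75 and 9.65. Sesn1 groups stayed apart (2.39-fold and 2.63-fold, adjusted p = 3.19e-06 and 5.28e-07), and Sesn3 fell 1.9-fold and 1.75-fold (adjusted p = 0.000144 and 0.000337). Both genes hold forkhead letters, Txnip at position -121 (chr3:96557707-96557956) and Sesn1 at position 23 after its start, of which a short stretch is shown (chr10:41810589-41810609).
Txnip: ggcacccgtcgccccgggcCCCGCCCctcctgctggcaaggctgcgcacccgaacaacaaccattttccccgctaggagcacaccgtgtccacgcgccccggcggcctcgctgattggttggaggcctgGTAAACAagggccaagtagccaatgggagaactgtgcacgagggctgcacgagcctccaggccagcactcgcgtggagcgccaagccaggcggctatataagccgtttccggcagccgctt
Sesn1: cttctacTGTTTACcagcctt

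Peli1, a ubiquitin ligase that restrains T cell activation, read 10.94, 10.82, 10.93 and 11.06 in WT_CD3 and 9.67, 9.60, 9.82 and 10.25 in WT_CD3CD28. Its KO_CD3 values of 11.16, 11.18, 11.20 and 11.22 had the smallest spread of any member in that group, and with anti-CD28 they were 9.54, 9.61, 10.09 and 9.95. Peli1 was lower on every costimulated array (2.14-fold and 2.63-fold, adjusted p = 9.65e-06 and 3.99e-07). Klhl24, a kelch-domain adaptor of ubiquitin ligases, fell 3.73-fold and 4.15-fold (adjusted p = 1.85e-05 and 4.53e-06), Rasgrp2 by 2.67-fold in each (8e-05 and 5.33e-05) and Tsc22d3, the glucocorticoid-induced leucine zipper, 1.75-fold and 1.84-fold (0.000185 and 5.3e-05). Tsc1 read 8.97, 8.80, 8.93 and 8.97 and then 8.66, 8.68, 8.70 and 8.51 in wild type, and 8.99, 8.97, 8.89 and 8.40 and then 8.55, 8.67, 8.42 and 8.26 in the knockout. In wild type the Tsc1 groups did not overlap, yet the difference missed the threshold (-0.28 ± 0.12, adjusted p = 0.0899). It passed with the replicate block (0.0395, where 16.5% of all genes were called lower) and without KO_CD3 replicate 4 (0.022), the lowest array of its group. The wild-type difference stayed at -0.28 without that array, which enters it only through the spread that the fit shares over all arrays. In the knockout, where that array overlaps the costimulated group, Tsc1 was called (-0.34 ± 0.12, adjusted p = 0.033), but no longer without KO_CD3 replicate 1, 2 or 3 or KO_CD3CD28 replicate 3 or 4 (0.0694 to 0.101).

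The other markers of naive cells were the least uniform group, with 2 of 5 lower in wild type, and 3 lower and 1 higher in the knockout. St6gal1, a sialyltransferase, read 10.37, 10.13, 10.56 and 10.66 in WT_CD3 and 9.56, 9.61, 9.67 and 9.76 in WT_CD3CD28. In the knockout St6gal1 went from 10.40, 10.52, 10.74 and 10.23 to 9.42, 9.37, 9.73 and 9.63. Its groups were distinct (1.72-fold and 1.91-fold lower, adjusted p = 0.000127 and 1.39e-05). Cxxc5, a CXXC zinc finger protein, read 7.22, 7.64, 7.68 and 7.79 and then 7.04, 7.15, 7.23 and 7.33 in wild type, and 7.63, 7.60, 7.82 and 7.70 and then 7.06, 7.12, 7.38 and 7.34 in the knockout. WT_CD3 replicate 1 lay among the costimulated arrays (1.31-fold, adjusted p = 0.0148), whereas the knockout groups stood apart (1.38-fold, adjusted p = 0.00421). The wild-type Cxxc5 call was lost without WT_CD3 replicate 4 (0.0621) or WT_CD3CD28 replicate 1 (0.0544). Actn1, the cytoskeletal protein alpha-actinin 1, read 11.09, 10.87, 11.17 and 11.23 in WT_CD3, 11.03, 10.98, 10.84 and 10.57 in WT_CD3CD28, 11.25, 11.40, 11.23 and 10.70 in KO_CD3 and 10.93, 10.83, 10.51 and 10.51 in KO_CD3CD28. Its groups overlapped in both genotypes, and the difference was -0.24 (interval -0.55 to 0.08) in wild type and -0.45 (-0.76 to -0.14, adjusted p = 0.0227) in the knockout. That call was lost without KO_CD3 replicate 1, 2 or 3 or KO_CD3CD28 replicate 3 or 4 (0.0535 to 0.0821).

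Igfbp4, a secreted binding protein of insulin-like growth factors, was the only member called higher with anti-CD28. In the knockout it read 8.16, 7.73, 7.32 and 7.16 with anti-CD3 and 8.42, 8.19, 8.62 and 8.41 with both, so every costimulated array was higher (1.76-fold, adjusted p = 0.037). In wild type, Igfbp4 read 9.18, 9.31, 8.23 and 7.84 and then 8.18, 8.14, 9.05 and 8.22. There the groups overlapped and the replicates disagreed: 1 and 2 fell with anti-CD28, and 3 and 4 rose. The knockout call was lost without KO_CD3 replicate 2, 3 or 4 or KO_CD3CD28 replicate 1, 3 or 4 (adjusted p 0.0547 to 0.106), and with array weights (0.59, adjusted p = 0.124). Dapl1, a marker of naive T cells, also split by replicate number, the other way round. It read 9.85, 10.18, 11.01 and 10.82 in WT_CD3, 10.00, 10.20, 10.14 and 10.27 in WT_CD3CD28, 10.02, 9.66, 11.26 and 11.55 in KO_CD3 and 10.01, 9.96, 10.40 and 10.36 in KO_CD3CD28, high on replicates 3 and 4 of the anti-CD3 groups alone. Over all replicates its differences were -0.31 (interval -1.01 to 0.39) and -0.44 (-1.14 to 0.26). The promoters of both genes are shown side by side: that of Dapl1 holds forkhead letters at position -164 (chr2:59484403-59484652), and that of Igfbp4 none of the 3 motifs (chr11:99040994-99041243).
Dapl1: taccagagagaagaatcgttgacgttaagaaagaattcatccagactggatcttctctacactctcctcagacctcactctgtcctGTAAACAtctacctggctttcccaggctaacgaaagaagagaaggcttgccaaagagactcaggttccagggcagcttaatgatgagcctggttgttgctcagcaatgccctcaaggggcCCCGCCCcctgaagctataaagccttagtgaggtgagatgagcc
Igfbp4: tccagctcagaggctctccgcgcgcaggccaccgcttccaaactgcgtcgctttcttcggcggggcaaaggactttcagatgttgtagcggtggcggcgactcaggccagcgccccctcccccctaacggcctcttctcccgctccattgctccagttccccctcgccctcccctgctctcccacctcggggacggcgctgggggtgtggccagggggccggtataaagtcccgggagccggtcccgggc

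**Figure D3:**
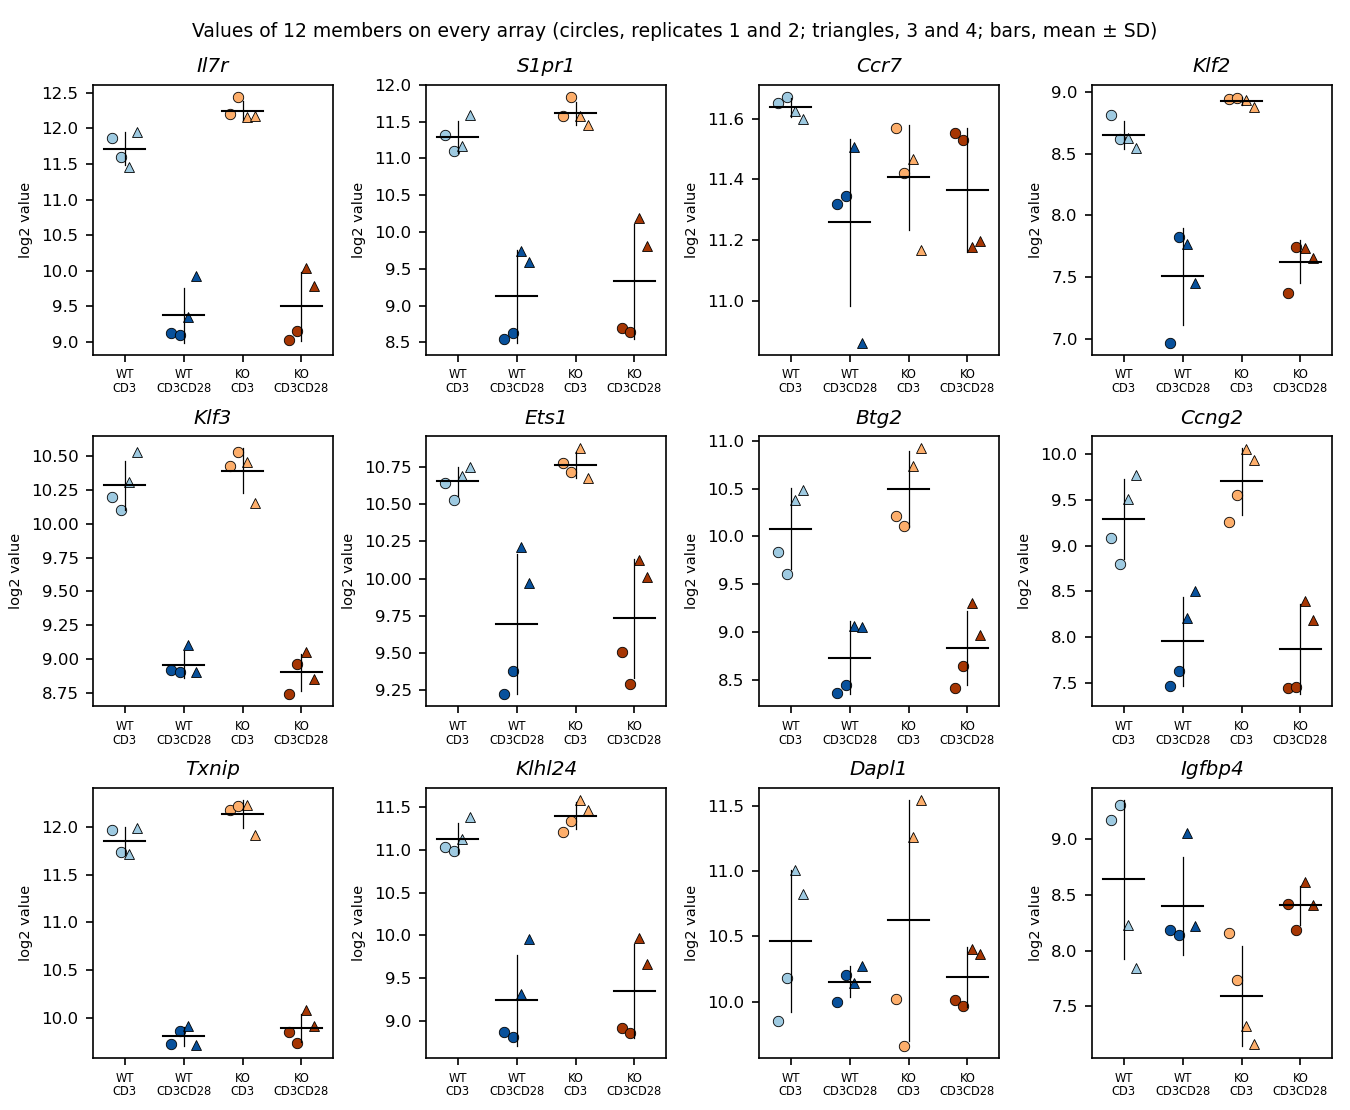
Log2 values of 12 members on every array, by group; circles are replicates 1 and 2, triangles replicates 3 and 4, and lines the group mean ± SD (n = 4), with an axis of its own for each gene. Il7r, S1pr1 and Ets1 show triangles above circles in both costimulated groups, and Btg2, Ccng2 and Klhl24 in all 4 groups. Igfbp4 and Dapl1 part by replicate number in the anti-CD3 groups.

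The parting of replicates 1 and 2 from 3 and 4 ran through many members, and the genes named for it here were chosen after their values were seen. Fitted on replicates 1 and 2 alone, S1pr1 differed with anti-CD28 by -2.63 in wild type and -3.04 in the knockout, and on replicates 3 and 4 alone by -1.71 and -1.52. Ets1 gave -1.28 and -1.35 against -0.63 and -0.71, and Slfn1 -1.60 and -1.75 against -0.94 and -0.88. Among the 28 members called lower, 17 fell further in replicates 1 and 2 in wild type, where 53.1% of all genes called lower did so. In the knockout 23 of 28 fell further there, against 75% of all such genes. Dapl1 was called lower on replicates 3 and 4 alone (-0.71 in wild type, adjusted p = 0.00631, and -1.02 in the knockout, 0.000689), where 16.1% and 17.6% of all genes were called in either direction, with differences of 0.08 and 0.15 on replicates 1 and 2. Tob2 in wild type was called lower on replicates 3 and 4 alone (-0.43, adjusted p = 0.0395) and differed by 0.11 on replicates 1 and 2. Wild-type Igfbp4 went from -1.08 on replicates 1 and 2 alone (adjusted p = 0.00014, where 36.1% of all genes were called) to 0.60 on replicates 3 and 4. Other calls with anti-CD28 were lost in these smaller fits. On replicates 3 and 4 alone, wild type lost Ccr7, Foxo1, Bcl11b (adjusted p = 0.208) and Slfn2. The knockout lost Foxo1, Satb1 (0.0873), Tsc1 and Actn1 there. On replicates 1 and 2 alone, wild type lost Slfn2 and Cxxc5, and the knockout lost the rise of Igfbp4 (0.0585). The labels do not say what the replicate numbers stand for, and the part of culture, animals or array runs in the parting of replicates was not tested. The members with the highest SD were Igfbp4 (0.715) in WT_CD3, Dapl1 (0.921) in KO_CD3, and S1pr1 in WT_CD3CD28 (0.631) and KO_CD3CD28 (0.781). The median SD of members was 0.189 in WT_CD3CD28 and 0.204 in KO_CD3CD28, against 0.148 and 0.129 over all genes.

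The fall with costimulation did not differ detectably between genotypes. The members called lower in both genotypes numbered 26, with Ccr7 and Bcl11b called in wild type alone and Tsc1 and Actn1 in the knockout alone. Of all 16427 genes, 1676 were called lower in both, 464 in wild type alone and 1212 in the knockout alone. Across the 35 members the 2 responses, which use different arrays, correlated with r = 0.953, against 0.933 across all genes; members are not independent replicates, so this is a description. The knockout difference was the more negative for 27 of 35 members (77.1%), against 49.7% of all genes. After centring this held for 23 members, and the knockout difference was the higher one for 60.2% of all genes. After quantile normalization these figures were 28 members and 52.3%. The same values make up the genotype differences below, so this count is no separate observation from those. In the direct test of the difference of responses, 0 members and 0 genes in all (0%) were called, and 1 member, Igfbp4, had an unadjusted p under 0.05 (limma). Its difference of responses was 1.05 ± 0.42 (interval 0.17 to 1.93, adjusted p = 0.905), positive in 4 of 4 same-numbered pairs, and on replicates 1 and 2 alone it was 1.43 and called (adjusted p = 0.0153), where 0.487% of all genes were called. Intervals for other members with the largest values remained wide, at -1.31 to 0.32 for Ccng2 and -1.03 to 0.22 for Il7r, so differences of that size were not detectable with this number of arrays.

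Under anti-CD3 alone, the question was whether cells without DEC1 held more or less of the naive programme. No member was called in this comparison (0 of 35 by limma, with 4, or 11.4%, at an unadjusted p under 0.05), where 1.03% of all genes were called in either direction and 24.3% had such a p. The 4 were Igfbp4, Txnip, Slfn2 and Il7r, whose values by array are given above. Igfbp4 was lower in the knockout in all 4 same-numbered pairs, with overlapping groups (-1.04 ± 0.29, adjusted p = 0.0791). Txnip was higher in 3 of 4 pairs (0.28 ± 0.10, adjusted p = 0.12), Slfn2 in 4 of 4 (0.21 ± 0.08, adjusted p = 0.144) and Il7r in 4 of 4 (0.53 ± 0.21, adjusted p = 0.147). Being higher in all 4 pairs held for 8 members (22.9%) and for 22.6% of all genes. Il7r, Klf2 and Peli1 were higher on every knockout array than on any wild-type array, as were 8.06% of all genes, and Ccr7 was lower on every one, as were 6.63%. The members' median difference was 0.108, against 0.033 over all genes. The sign was positive for 26 of 35 members and 55.4% of all genes, and after centring for 19 members and 39% of all genes. Relative to the median of all genes, 25 of 35 members were higher with and without centring and 28 after quantile normalization.

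Same-numbered arrays of the 2 genotypes share a number but differ in Xist for replicates 1, 2 and 4, so they are not known to be matched pairs. Such arrays still deviated together, and with the replicate block 3 members were called under anti-CD3, where 11.9% of all genes were. They were Btg2 (0.42 higher in the knockout, adjusted p = 0.0156), Ccng2 (0.41 higher, 0.028) and Igfbp4 (-1.04, 0.0275). Btg2 read 9.84, 9.61, 10.38 and 10.49 in WT_CD3 and 10.22, 10.11, 10.74 and 10.92 in KO_CD3, and was higher in each of the 4 pairs although the groups overlapped. Ccng2 read 9.08, 8.80, 9.51 and 9.77 against 9.26, 9.55, 10.06 and 9.93, with the same order in every pair. Without WT_CD3 replicate 4, Igfbp4 was called in the fit without a block (-1.31, adjusted p = 0.0421), where 0.749% of all genes were. On replicates 1 and 2 alone, 5 members were called (Il7r, S1pr1, Btg2 and Tob1 higher, Igfbp4 lower), where 8.45% of all genes were. On replicates 3 and 4 alone 0 members were called, but so were 0 genes in all (0%).

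**Figure D4:**
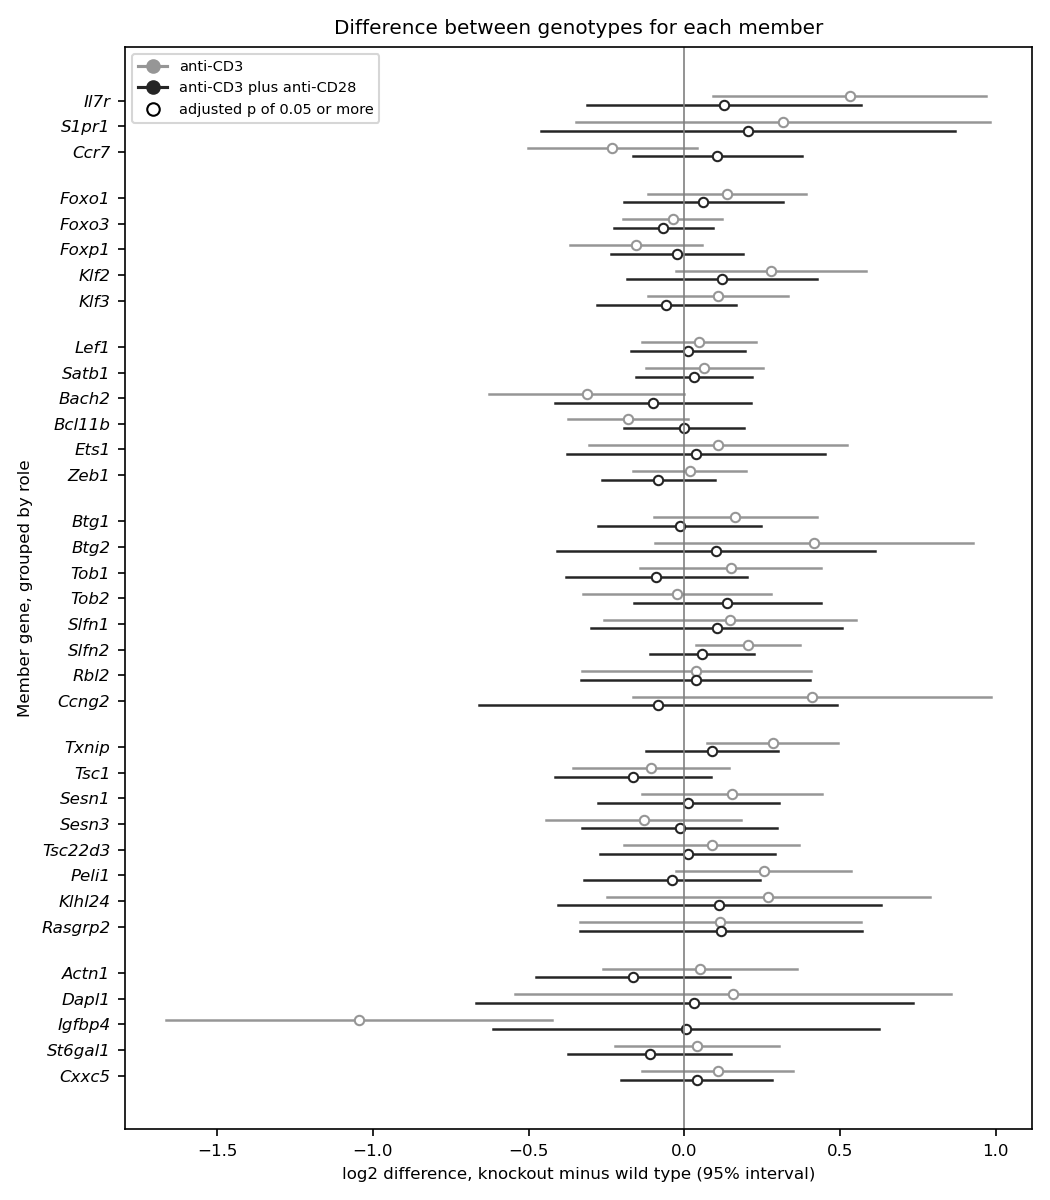
Points give the log2 difference knockout minus wild type for each member, with 95% intervals, under anti-CD3 (grey) and under anti-CD3 plus anti-CD28 (black); all points are open because none passed an adjusted p of 0.05. Under anti-CD3 Igfbp4 lies at -1.04 and Il7r at 0.53, and with anti-CD28 all points lie between -0.16 and 0.21.

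With both antibodies the genotypes were closer. No member was called (0 of 35 by limma, 0 also at an unadjusted p under 0.05, and 0 with the replicate block), where 0.00609% of all genes, which is Bhlhe40 alone, were called. The differences ran from -0.16 for Actn1 and Tsc1 to 0.21 for S1pr1, with a median of 0.01 against 0.02 over all genes. Among the members with the smallest p were Tsc1 (interval -0.41 to 0.09), Actn1 (-0.48 to 0.15) and Zeb1 (-0.27 to 0.10), each with overlapping groups. The widest intervals outside Dapl1 and Igfbp4 were those of S1pr1 (-0.46 to 0.87) and Ccng2 (-0.66 to 0.49).

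A second list of 44 naive and FOXO target genes, of which 40 were tested, mostly went the same way. It was also chosen with earlier results of these data known, so it is no independent support. In wild type 26 fell with anti-CD28, 0 rose and 14 were not called (median -0.58), where 13% of all genes were called lower and 16% higher. In the knockout 28 fell, 0 rose and 12 were not called (median -0.60), where 17.6% and 20.4% of all genes were called lower and higher. Tcf7, the partner of Lef1, was among the 4 not tested, since no probe carries that single symbol. The 4 with the smallest p were Cd55, a complement regulator (-1.85 and -2.26), Mxd4, a MYC antagonist (-0.77 and -0.59), Ypel3, a growth-suppressing gene (-2.02 and -1.80), and Cd27, a costimulatory receptor of naive and memory cells (-1.62 and -1.27). All of these passed the test in both genotypes with adjusted p of 4.17e-06 or less and without overlap. None of the 40 was called between genotypes under either stimulus or in the difference of responses (limma). An unadjusted p under 0.05 was found for 5, 1 and 2 of them, and for 24.3%, 3.32% and 5.28% of all genes.

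Relatives of the members in the same protein families gave a mixed picture. Of 37 tested relatives, 12 fell and 4 rose in wild type (median -0.01) and 14 fell and 5 rose in the knockout (median -0.14). Of all genes, 13% were called lower and 16% higher in wild type, and 17.6% and 20.4% in the knockout. S1pr4, a second sphingosine 1-phosphate receptor, fell beside S1pr1 (-1.45 ± 0.14 and -1.44 ± 0.14, adjusted p = 8.99e-07 and 5.44e-07), and Bach1 beside Bach2 (-1.06 and -1.14, adjusted p = 3.64e-06 and 8.44e-07). Schlafen genes went both ways. Slfn5 fell beside Slfn1 and Slfn2 (-1.37 and -1.78, adjusted p = 3.48e-06 and 1.01e-07). Slfn9 rose from 7.19, 7.13, 7.31 and 7.35 to 8.61, 9.03, 8.76 and 9.14 in wild type and from 7.05, 7.08, 7.21 and 7.38 to 8.37, 8.43, 8.64 and 8.60 in the knockout. Its groups were far apart (3.12-fold and 2.51-fold higher, adjusted p = 2.71e-08 and 1.21e-07), and Slfn3 rose by 0.79 and 1.01 (adjusted p = 0.000157 and 8.47e-06). Rbl1, the pocket protein p107 that is itself turned on in cycling cells, rose by 0.50 and 0.46 (adjusted p = 0.0206 and 0.0239) with overlapping groups while Rbl2 fell. Igfbp7 rose in wild type (0.37, adjusted p = 0.0122) and not in the knockout (0.01), and Klf10 and Ets2 rose in the knockout (0.65 and 0.56, adjusted p = 0.0283 and 0.00461) and missed the threshold in wild type (0.59 and 0.37). For these 3 the difference of responses was not called (adjusted p 0.905 to 0.982).

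**Figure D5:**
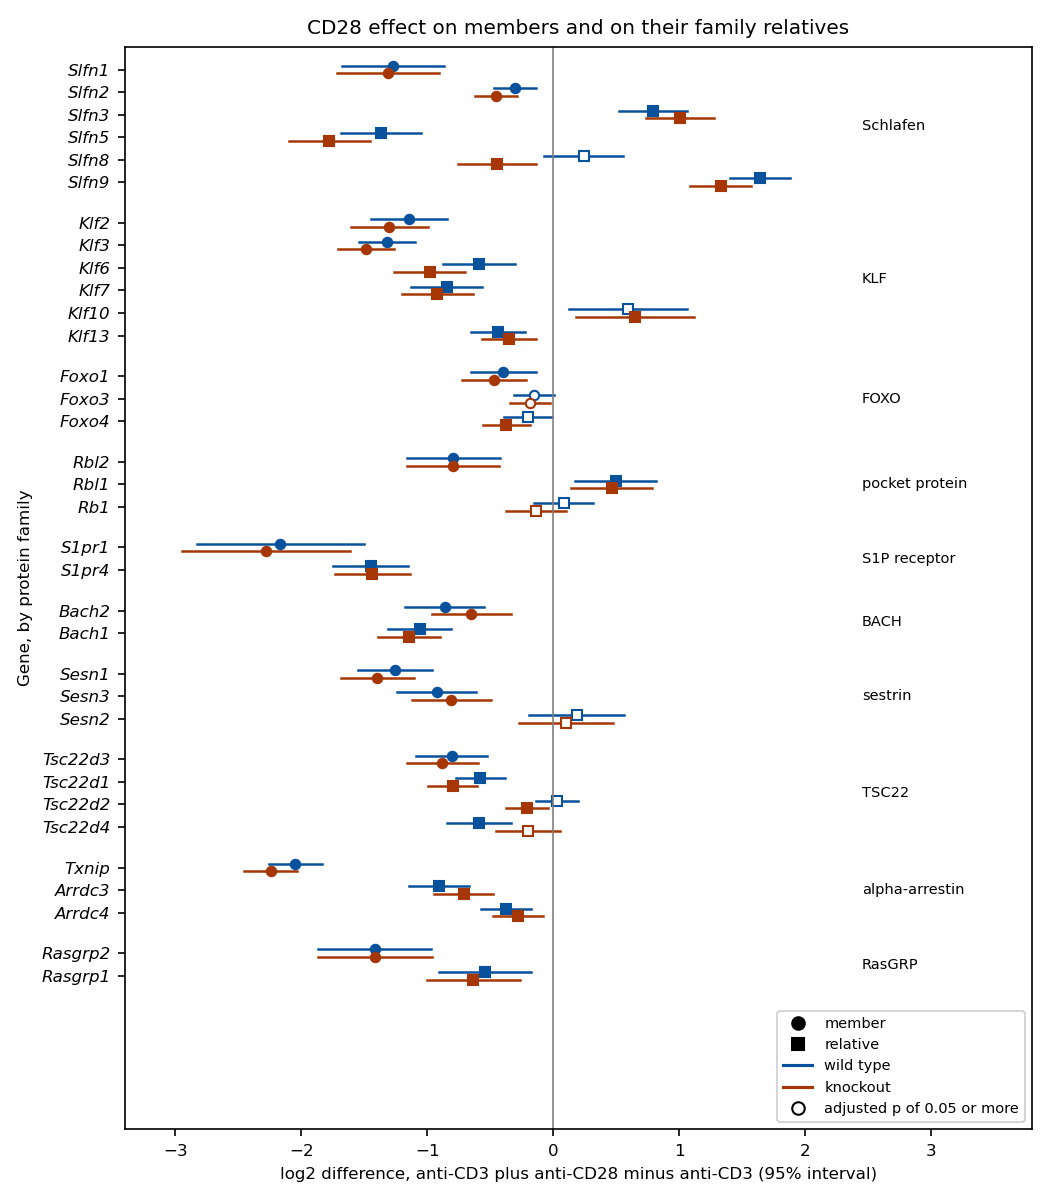
Log2 difference with anti-CD28, with 95% intervals, for members (circles) and relatives (squares) of 10 of the protein families in wild type (blue) and knockout (brown); open symbols did not pass an adjusted p of 0.05. Slfn9, Slfn3 and Rbl1 lie right of 0 while Slfn1, Slfn2 and Rbl2 lie left of it.

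Markers of other cells moved along with the members in part. For comparison, 13% of all genes were called lower and 16% higher in wild type, and 17.6% and 20.4% in the knockout. The T cell identity list read 11.20 to 11.46 (mean log2 level of its 10 tested genes, by array) in WT_CD3 and 10.83 to 11.18 in WT_CD3CD28, and 11.08 to 11.33 and 10.89 to 10.94 in the knockout groups. With anti-CD28, 5 of its 10 genes fell and 1 rose in wild type (median -0.50), 4 fell and 1 rose in the knockout (median -0.35), and Cd3g, the CD3 gamma chain, fell in both genotypes (-0.63 and -0.60, adjusted p = 0.0023 and 0.00275). B cell markers read 6.40 to 6.55 in WT_CD3 and 5.93 to 6.11 in WT_CD3CD28, and 6.25 to 6.68 and 5.99 to 6.15 in the knockout. Of 9 tested B cell genes, 5 fell in wild type and 7 in the knockout; 0 were near background in the anti-CD3 groups, and Cd79a, Ms4a1 and Bank1 were in both costimulated groups, while Cd79b, the brightest, differed by -0.15 and 0.00. Myeloid and dendritic cell markers read 6.81 to 6.94 and 6.36 to 6.49 in wild type and 6.70 to 7.14 and 6.37 to 6.50 in the knockout. Of 17, 7 and 10 fell, with Cd14 near background in all groups and Lyz2 in the costimulated ones, and with Cst3, the brightest, at -0.23 and 0.37. The part of such cells in the members' falls was not tested.

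The remaining marker lists were uneven, and the shares of all genes called are those given for the lists above. CD8 and NK cell markers gave 4 rises and 2 falls of 7 genes in wild type and 4 and 3 in the knockout (medians 0.62 and 0.40). Their levels were 7.76 to 7.88 and 7.56 to 7.80 in the wild-type groups and 7.71 to 8.02 and 7.55 to 7.85 in the knockout. Unlike those medians, Klrd1, the CD94 receptor chain, fell (-3.43 and -3.71, adjusted p = 4.69e-08 and 8.52e-09). Regulatory T cell markers gave 3 rises of 8 in wild type and 5 in the knockout, with levels of 8.67 to 9.11 and 8.94 to 9.59 and of 8.32 to 8.68 and 9.08 to 9.35; Il2ra, which encodes the CD25 used to exclude cells in the sort and which activated cells turn on, rose by 0.92 and 1.49. Memory markers split 3 up and 3 down of 9 in wild type, and 3 and 1 in the knockout (medians 0.31 and -0.03). Their levels were 8.12 to 8.24 and 8.12 to 8.59 and then 7.95 to 8.33 and 8.25 to 8.63. Crip1 lay below those medians, at -0.91 and -0.46 (adjusted p = 0.00754 and 0.141). Of 4 erythroid and platelet genes, 0 were called in wild type by limma (0 also at an unadjusted p under 0.05) and 2 fell in the knockout, with levels of 6.77 to 6.92 and 6.67 to 6.90 and of 6.96 to 7.19 and 6.70 to 6.94, and Gp9 differed by -0.15 and -0.28. Between KO_CD3 and WT_CD3 the regulatory T cell markers had a median difference of -0.44, with 0 of 8 called by limma, 3 at an unadjusted p under 0.05 (24.3% of all genes had one) and 2 of the 8 signs positive. The part of these cells in the members' values was not tested.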

How the data were processed

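RNA of 16 samples in 4 groups was hybridised to 1-colour Affymetrix mouse arrays, and the authors deposited log2 values of 35556 probes made with RMA, per the submitters' processing notes; its version and the array's genome build are not given in the sources used here. Array medians ran from 6.64 to 6.97. Probes with a single symbol in the platform's probe table (21789) were kept if above the 25th percentile of their array on at least 4 arrays, with the brightest per gene. The number of arrays limits the precision. Differences were tested with limma 3.58.1 (R 4.3.3), fitting a mean per group over all arrays, with Benjamini-Hochberg adjustment over 16427 genes, in 5 comparisons, and the code was checked on simulated data. Near background means a median rank under 30% of an array's probes. Same-numbered arrays deviated together (correlations of deviations from 0.16 to 0.59 over all comparisons), so the replicate number was also fitted as a block.

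The members and lists were chosen with earlier results of these data known. Arrays are given for the 3 members of each role group with the smallest p for the CD28 effect in wild type, members called opposite to the rest and those with the smallest p between genotypes. Of the other lists the 4 genes with the smallest p, genes called the opposite way and the brightest marker are named; further genes were chosen after their values were seen. Alternatives changed the scaling, filter, probe choice, variance model, array weights, arrays fitted, block, replicates and an Xist covariate.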

Additional observations from a re-analysis of the deposited data

Results flagged for a closer look

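In 8 of 140 member and group combinations 1 array stood far from the other 3, with a gap past Dixon's critical value for 4 arrays, which chance gives in about 1 of 20 such groups. In KO_CD3, replicate 4 was low for Lef1 (11.16, the next lowest 11.31), Txnip (11.91, next 12.18) and Rasgrp2 (8.32, next 8.75), and replicate 2 was high for Il7r (12.44, next 12.21). In WT_CD3CD28, replicate 3 was high for Klf3 (9.10, next 8.92), Lef1 (10.85, next 10.51) and Igfbp4 (9.05, next 8.22), and replicate 4 was low for Foxp1 (9.75, next 9.96).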

How the results depend on the processing

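The counts of members called lower with anti-CD28 moved little: from 28 to between 25 and 29 in wild type and between 26 and 29 in the knockout when any 1 array was left out, and to 26 to 30 and 25 to 30 under 13 other settings each. Over the same settings, the genes called in either direction ranged from 2650 to 6549 in wild type and from 2896 to 7682 in the knockout. No member's called difference turned its sign under any of these settings. For knockout minus wild type under anti-CD3, 0 members became 3 with the replicate block and 5 on replicates 1 and 2 alone, and 0 to 1 when 1 array was left out. The count under anti-CD3 plus anti-CD28 was 0 throughout. For the difference of responses, 0 became 1 on replicates 1 and 2 alone. Among members, the block changed no other calls than those of Tsc1, Foxo3, Btg2, Ccng2 and Igfbp4. Most calls that changed when 1 array was left out or the arrays were rescaled stand beside their genes above. In the knockout, fitting only the 2 groups compared lost Tsc1 (adjusted p = 0.0961) and Actn1 (0.0502) and the stricter filter gained Bcl11b (0.0473), while in wild type Tsc1 was gained with only those groups (0.0242) and with array weights (0.0266). The cause was not tested. With 4 arrays a group, small differences between genotypes could be missed. Under anti-CD3 this also turned on the model, since the block called Btg2 and Ccng2 at differences of 0.42 and 0.41.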
